A study of Mus musculus with 7 samples.

Results

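Amino acid transporters are the membrane carriers that move amino acids, and a few related osmolytes and neurotransmitters, into cells, out of cells and across the lysosomal membrane. They were taken here as every gene symbol that begins with Slc1a, Slc3a, Slc6a, Slc7a, Slc36a, Slc38a or Slc43a followed by a digit, which selected 46 of the 12958 rows in the expression tables. Of these, 44 name members of carrier families, and Slc36a1os and Slc7a6os name genes on the opposite strand beside a carrier gene. By family there were 5 Slc1a, 2 Slc3a, 12 Slc6a, 13 Slc7a, 3 Slc36a, 9 Slc38a and 2 Slc43a symbols. All 46 passed the filter on low values.

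Poly-A RNA of glomeruli, the capillary tufts that filter the blood, was sequenced from 7 male BALB-C mice at 14 weeks of age, with 1 library per animal. Animals of the knockdown group (n = 3) were transgenic for an siRNA against Shroom3, which encodes an actin-binding junction protein, and the control group (n = 4) was made up of their littermates without the transgene. Both groups were given doxycycline by food and water over 6 weeks, starting at 8 weeks of age, so the agent does not separate them. The sources used here name neither the promoter that drives the transgene nor the cells in which it acts. Sample titles began with G in 5 libraries (2 knockdown, 3 control) and with CB6 in the other two, knockdown replicate 3 and control replicate 4.

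The tables gave a value per gene on a log scale, read as log2, with library medians between 9.15 and 9.16. Sequencing depth and counting error are unknown, and whether values were scaled to gene length is not given, so levels of different genes were not compared. Where the highest mean decided which genes of a list are named, it was the deposited value as it stands and says nothing of abundance. The Shroom3 transcript was at 10.80, 10.91 and 10.89 in the knockdown libraries, against 10.94, 10.85, 11.36 and 11.06 in the control libraries. It did not pass the test (log2 fold change -0.19, SE 0.11; limma with Benjamini-Hochberg, adjusted p = 0.417; two-sided exact permutation p = 0.229, where the smallest possible is 0.0286), so the groups are named as labelled. Podocyte markers were present, with a mean over 22 markers between 12.67 and 12.81 in knockdown and between 12.76 and 13.20 in control libraries. Markers of the proximal tubule, which lies outside the tuft, were present too, and their values are given beside the epithelial carriers.

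Most filtered amino acids are taken back in the proximal tubule. Apical carriers with sodium or proton coupling load them from the filtrate, and basolateral exchangers pass them to the blood. Several exchangers of the Slc7a family work as light chains that reach the membrane only when joined to a heavy chain of the Slc3a family. Inside cells, lysosomal carriers return amino acids from protein breakdown and take part in their sensing by the kinase complex mTORC1. A shortage of amino acids activates the transcription factor ATF4, which raises transcription of several plasma membrane carriers.

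Of the 46 transporter symbols, 4 fell and 1 rose in knockdown glomeruli in a fit on group alone. Slc7a13, an acidic amino acid and cystine carrier of the proximal tubule, fell to a mean log2 value of 9.67 in knockdown glomeruli, against 11.34 in control glomeruli. Slc1a4, a carrier of alanine, serine and cysteine, Slc1a2, a glutamate carrier best known from astrocytes, and Slc36a1, a proton-coupled carrier of the lysosome and plasma membrane, fell as well. Slc7a5, the light chain of a widely expressed exchanger of large neutral amino acids, rose. These 5 are 10.9% of the symbols, where 3.02% of all 12958 genes passed the same test (limma with Benjamini-Hochberg, adjusted p under 0.05). Split by direction, 8.70% of the symbols fell, beside 2.02% of all genes, and 2.17% rose, beside 0.996%. With title style (G or CB6) as a covariate, only Slc7a13 and Slc1a2 passed, both lower, beside 1.47% of all genes. In the libraries titled G alone no symbol passed, beside 0.309% of all genes. An adjustment of the values for title style before deposit is not stated and was not tested. With such a step, the p-values of the fit on group alone would be too small. Over the 46 symbols the median log2 fold change was -0.0039, with 23 positive and 23 negative, and over all genes it was 0.02, with 56.2% positive and 43.8% negative. A change by at least 1 on the log2 scale among called genes was seen for 2 symbols, 4.35% of them, beside 0.718% of all genes.

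**Figure D1:**
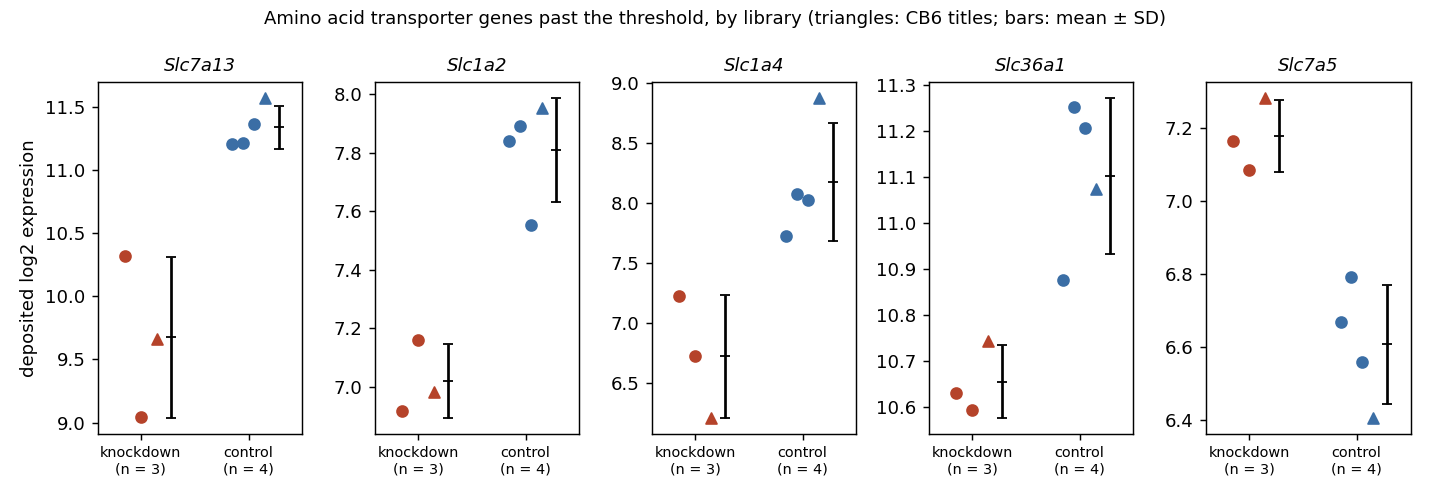
Deposited log2 expression (y axis) of the 5 transporter genes past the threshold in the 3 knockdown libraries (red, left) and the 4 control libraries (blue, right), with triangles for the libraries with CB6 titles and black bars for the mean ± SD. The knockdown values lie below every control value for Slc7a13, Slc1a2, Slc1a4 and Slc36a1, and above every control value for Slc7a5.

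Promoter sequences are shown for Slc1a4 and Slc36a1, because the amino acid response and lysosomal gene control are described through short motifs near the start of such genes. RefSeq promoter windows on GRCm38.p6 covered 33 of the 46 symbols and, of the 5 genes past the threshold, Slc1a2, Slc1a4 and Slc36a1. Each window here runs from 250 bases before the transcription start to 30 bases after it. Capitals mark the amino acid response element core TGATGNAA, the E-box CACGTG and the CLEAR core TCACGTGA, searched on both strands, the CLEAR core containing the E-box. The Slc1a4 window is chr11:20332684-20332963 on the minus strand, and the Slc36a1 window is chr11:55204090-55204369 on the plus strand.
Slc1a4: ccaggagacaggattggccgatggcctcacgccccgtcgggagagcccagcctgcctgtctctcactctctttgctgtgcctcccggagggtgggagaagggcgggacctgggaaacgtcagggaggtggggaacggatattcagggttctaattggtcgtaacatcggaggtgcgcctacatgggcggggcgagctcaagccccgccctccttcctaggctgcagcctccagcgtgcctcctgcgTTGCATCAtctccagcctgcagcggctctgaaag
Slc36a1: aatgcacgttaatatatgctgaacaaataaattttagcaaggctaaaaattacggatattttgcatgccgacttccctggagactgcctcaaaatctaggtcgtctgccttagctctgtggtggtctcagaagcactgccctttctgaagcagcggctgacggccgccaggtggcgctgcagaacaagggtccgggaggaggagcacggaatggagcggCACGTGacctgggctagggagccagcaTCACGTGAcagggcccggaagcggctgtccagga
The Slc1a4 window held the response element core once, as TTGCATCA on the printed strand, with its first base 4 bases before the start. Slc36a1 held an E-box 31 bases before the start and a CLEAR core that begins 4 bases before it. Of all 32851 promoter windows, 3.81% held the response element core, 6.79% the E-box and 0.931% the CLEAR core. The 33 covered symbols had 52 windows, as some have several starts. Of these 52, 3 held the response element core (of Slc1a4 and Slc7a7), 3 the E-box (of Slc36a1, Slc38a7 and Slc7a14) and 1 the CLEAR core. The GC box GGGCGG occurred in 27 of the 52 windows, Slc1a4 included, and in 34.7% of all windows. The TATA box TATAAA occurred in 4 of the 52 and in 13.1% of all, the HNF1 core GTTAAT in 5 and in 6.85% of all, and the steroid receptor core AGAACA in 9 and in 17.8% of all. The HNF1 core and the steroid receptor core both occurred in the Slc36a1 window. The Slc1a2 window, whose start lies inside the annotated gene, held none of the 7 motifs. The motifs and window were chosen with the sequences in view, and a match describes letters only.

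Slc1a2 and Slc1a4 fell among the 5 Slc1a genes, which carry glutamate, aspartate or small neutral amino acids. Slc1a2 (ENSMUSG00000005089.15; GRCm38 chromosome 2, 102658659 to 102790784, plus strand) had log2 values of 6.92, 7.16 and 6.98 in knockdown glomeruli, against 7.84, 7.89, 7.55 and 7.95 in control glomeruli. The groups did not overlap, as was the case for 14 of the 46 symbols and for 18.4% of all genes. Knockdown averaged 7.02 ± 0.13 (SD, n = 3) and control 7.81 ± 0.18 (SD, n = 4), for a log2 fold change of -0.79 in knockdown (SE 0.13, 95% interval -1.08 to -0.50; limma with Benjamini-Hochberg, adjusted p = 0.0169). Exon bases of Slc1a2 overlap Gm13872 on the opposite strand, and the use of strand in counting is not given, so reads of the pair cannot be told apart. The same limit holds for 14 of the 46 symbols in all, Slc1a1, Slc3a1, Slc6a6, Slc6a20a, Slc7a2, Slc7a7, Slc38a9 and Slc43a2 among them, and for Shroom3, but not for the other 4 genes past the threshold.

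Slc1a4 (ENSMUSG00000020142.12; chromosome 11, 20302180 to 20332713, minus strand) had log2 values of 7.23, 6.73 and 6.21 in knockdown glomeruli, against 7.73, 8.07, 8.02 and 8.87 in control glomeruli. The lowest and the highest of these were the CB6 libraries, so that the difference was -0.96 within the libraries titled G and -2.66 within the CB6 pair. Over all libraries the log2 fold change was -1.45 (SE 0.30, 95% interval -2.14 to -0.76; limma with Benjamini-Hochberg, adjusted p = 0.0438), a 2.74-fold lower value in knockdown. The other 3 Slc1a genes did not pass. Slc1a1, the apical glutamate and aspartate carrier of the proximal tubule, was at 11.27, 10.92 and 10.83 in knockdown and at 10.93, 11.39, 10.999 and 11.36 in control libraries, with overlapping groups (log2 fold change -0.17). Slc1a3, the other astrocyte glutamate carrier, had a log2 fold change of 0.29, and all its knockdown values lay above the control values, opposite in sign to Slc1a2. Slc1a5, a glutamine exchanger close to Slc1a4 in sequence, had a log2 fold change of 0.08, with an interval from -0.24 to 0.41.

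Slc7a13 had the largest difference of the 46 symbols. Slc7a13 (ENSMUSG00000041052.8; chromosome 4, 19818725 to 19842218, plus strand) had log2 values of 10.32, 9.04 and 9.66 in knockdown glomeruli, against 11.21, 11.21, 11.36 and 11.57 in control glomeruli. The knockdown libraries were spread more widely than the controls (SD 0.64, n = 3, and SD 0.17, n = 4), and the groups did not overlap. The log2 fold change was -1.66 (SE 0.25, 95% interval -2.24 to -1.09; limma with Benjamini-Hochberg, adjusted p = 0.0123), a 3.17-fold lower value in knockdown. It was -1.58 within the libraries titled G and -1.90 within the CB6 pair.

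The heavy chain that Slc7a13 needs at the membrane, Slc3a1, did not pass. It was at 11.63, 11.42 and 11.54 in knockdown libraries, against 11.72, 11.97, 11.69 and 11.82 in control libraries. All knockdown values were lower, with a log2 fold change of -0.27 (SE 0.08; limma with Benjamini-Hochberg, adjusted p = 0.126). Slc3a1 also joins Slc7a9, with which it forms the apical cystine and basic amino acid exchanger that is defective in cystinuria. Slc7a9 was at 9.62, 9.45 and 9.56 in knockdown and at 9.54, 9.85, 9.75 and 9.73 in control libraries, with a log2 fold change of -0.17. Slc7a9 minus Slc3a1 averaged -1.99 ± 0.02 in knockdown glomeruli, against -2.08 ± 0.10 in control glomeruli (SD, n = 3 and n = 4), a difference of 0.09 on the log2 scale. Slc7a13 minus Slc3a1 averaged -1.86 ± 0.53 in knockdown glomeruli, against -0.46 ± 0.22 in control glomeruli (SD, n = 3 and n = 4). Both light chains thus had a lower mean in knockdown. The log2 fold change was -0.17 for Slc7a9, with overlapping groups, -0.27 for Slc3a1 and -1.66 for Slc7a13. Whether these genes differed from each other in their change was not tested.

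The heavy chain Slc3a2, part of the widely expressed exchangers and of the basolateral exchangers of the tubule, differed less than its spread. It was at 11.74, 11.50 and 11.48 in knockdown and at 11.53, 11.74, 11.64 and 11.79 in control libraries (log2 fold change -0.10, interval -0.30 to 0.10). Its light chain Slc7a5 (ENSMUSG00000040010.10; chromosome 8, 121881150 to 121907694, minus strand) was at 7.17, 7.09 and 7.28 in knockdown glomeruli, against 6.67, 6.79, 6.56 and 6.41 in control glomeruli. Every knockdown value was higher, and Slc7a5 rose by 0.57 on the log2 scale (SE 0.12, 95% interval 0.29 to 0.85; limma with Benjamini-Hochberg, adjusted p = 0.0487), just inside the threshold. Slc7a5 minus Slc3a2 averaged -4.40 ± 0.19 in knockdown glomeruli, against -5.07 ± 0.23 in control glomeruli (SD, n = 3 and n = 4).

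The other light chains of Slc3a2 overlapped between the groups. Slc7a7, the basolateral exchanger of basic amino acids, was at 11.43, 10.96 and 10.97 in knockdown and at 11.0005, 11.50, 11.13 and 11.43 in control libraries (log2 fold change -0.15). Slc7a8, a basolateral exchanger of neutral amino acids, was at 11.46, 11.36 and 11.23 in knockdown and at 11.26, 11.56, 11.37 and 11.57 in control libraries (log2 fold change -0.09). Slc7a6, a relative of Slc7a7 in other tissues, was at 7.39, 8.00 and 7.78 in knockdown and at 7.92, 7.86, 8.06 and 7.91 in control libraries (log2 fold change -0.22). These 3 light chains thus differed in sign from Slc7a5 at intervals that include 0, save that Slc7a8 turned to 0.02 in the libraries titled G alone. The cystine and glutamate exchanger Slc7a11 had no row under that symbol in the expression tables, so it was not analysed here.

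The remaining Slc7a symbols did not pass. Slc7a2, a carrier of basic amino acids such as arginine, was at 8.61, 8.92 and 8.80 in knockdown and at 8.59, 8.40, 8.16 and 8.26 in control libraries, without overlap (log2 fold change 0.43; limma with Benjamini-Hochberg, adjusted p = 0.113). Its relative Slc7a1 had a log2 fold change of 0.03. Slc7a14, of lysosomes, had knockdown values above all controls at a log2 fold change of 0.17. Slc7a10, a carrier of small neutral amino acids in nerve tissue, was at 0.20, Slc7a4 at 0.09, Slc7a12 at 0.40 with an interval from -0.37 to 1.17, and the opposite strand gene Slc7a6os at 0.09, all as log2 fold changes.

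**Figure D2:**
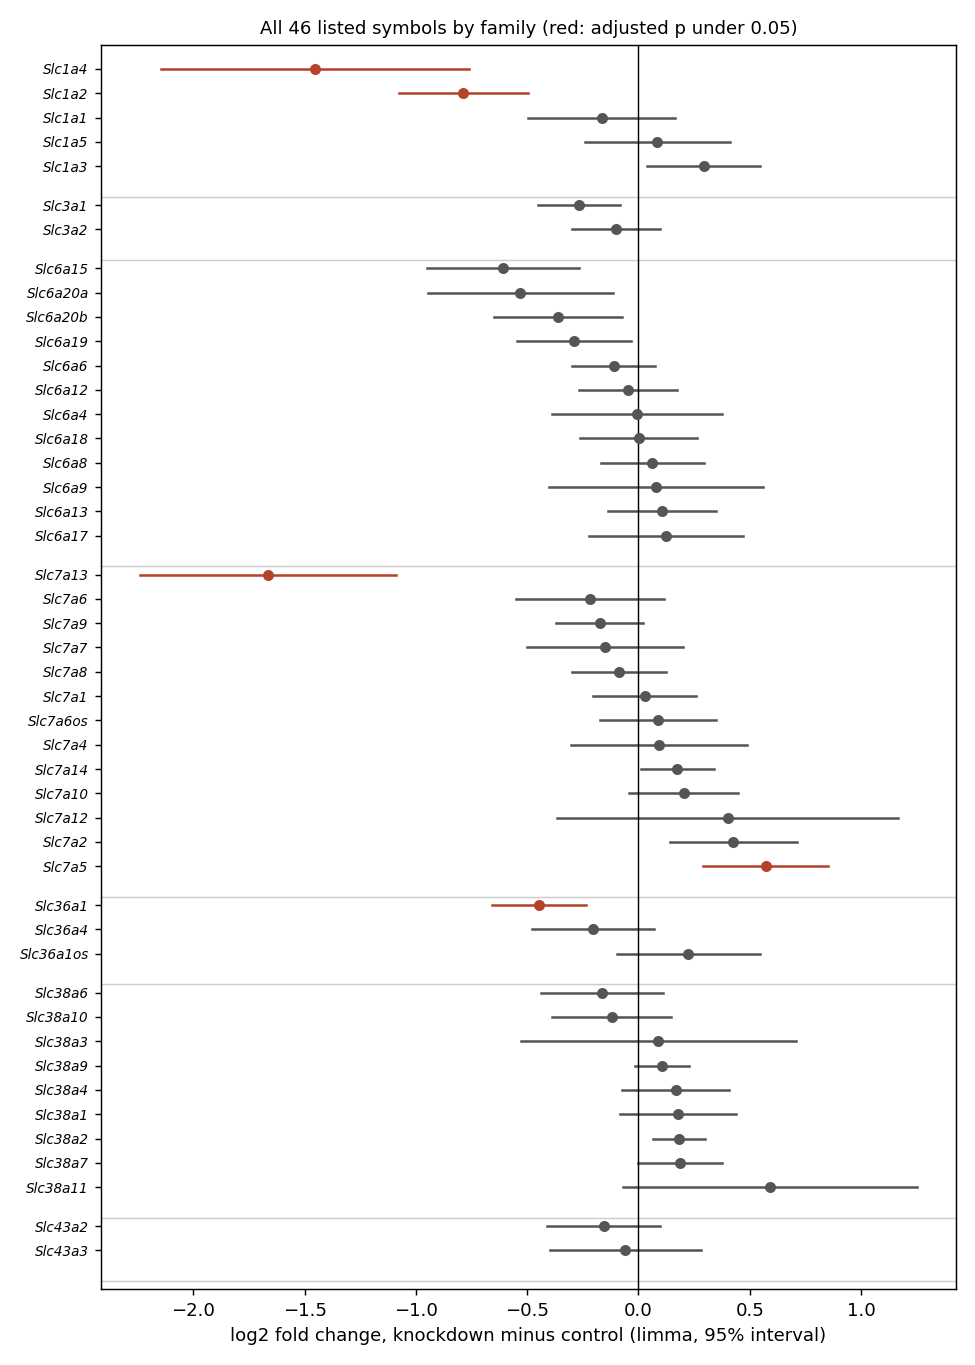
Log2 fold change, knockdown minus control (x axis), with its 95% interval from limma for the 46 symbols, arranged by family and sorted within it, red where the adjusted p was under 0.05. The intervals of Slc7a13 (-2.24 to -1.09) and Slc1a4 (-2.14 to -0.76) lie farthest below 0, and Slc7a5 is the red point above 0.

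None of the 12 Slc6a symbols passed, and 4 had an unadjusted p under 0.05, where 18.4% of all genes did. These sodium and chloride coupled carriers include neurotransmitter, osmolyte and amino acid transporters. Slc6a15, a neutral amino acid carrier of neurons, had the largest difference. It was at 7.54, 7.73 and 8.05 in knockdown and at 8.27, 8.60, 8.48 and 8.18 in control libraries, all knockdown values being lower. Its log2 fold change was -0.61 (SE 0.15; limma with Benjamini-Hochberg, adjusted p = 0.0719), with -0.81 within the libraries titled G and -0.13 within the CB6 pair.

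The apical carriers of the proximal tubule in this family were split. Slc6a19, the main apical carrier of neutral amino acids, whose loss causes Hartnup disorder, was at 12.24, 12.11 and 12.14 in knockdown and at 12.26, 12.73, 12.30 and 12.51 in control libraries. All its knockdown values were lower, by a log2 fold change of -0.29 (limma with Benjamini-Hochberg, adjusted p = 0.215). Slc6a18, a related apical carrier that lies 1721 bases from Slc6a19 on chromosome 13, averaged 11.53 ± 0.23 in knockdown glomeruli, against 11.53 ± 0.14 in control glomeruli (SD, n = 3 and n = 4). Its log2 fold change of 0.0008 changed sign under 6 of 15 settings, and its interval ran from -0.26 to 0.26. Slc6a20a and Slc6a20b, the mouse copies of the proline carrier gene, 2204 bases apart on chromosome 9, had log2 fold changes of -0.53 and -0.36 and did not pass. They resemble each other in sequence, and how reads were shared between them is uncertain.

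The osmolyte, creatine and neurotransmitter carriers of the Slc6a family showed little difference. Slc6a6, the taurine carrier, was at 13.69, 13.76 and 13.84 in knockdown and at 13.86, 13.77, 14.06 and 13.82 in control libraries (log2 fold change -0.11, interval -0.30 to 0.08). Slc6a8, which carries creatine, had a log2 fold change of 0.06, Slc6a13, a GABA and taurine carrier, of 0.11, and the serotonin carrier Slc6a4 of -0.01, each with overlapping groups. The glycine carrier Slc6a9 was at 0.08 and the neuronal vesicle carrier Slc6a17 at 0.12. Slc6a12, a betaine and GABA carrier, averaged 3.87 in knockdown and 3.92 in control libraries. In the libraries titled G its values differed only by offsets shared by 108 genes in all, as a filled-in value would, so its fold change of -0.05 describes no measured expression.

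Slc36a1 fell in the family of proton-coupled carriers. Slc36a1 (ENSMUSG00000020261.15; chromosome 11, 55204350 to 55236330, plus strand) was at 10.63, 10.59 and 10.74 in knockdown glomeruli, against 10.88, 11.25, 11.21 and 11.07 in control glomeruli. The groups did not overlap, and the log2 fold change was -0.45 (SE 0.09, 95% interval -0.66 to -0.23; limma with Benjamini-Hochberg, adjusted p = 0.0438). It was -0.50 within the libraries titled G and -0.33 within the CB6 pair. Slc36a4, a related carrier, had a log2 fold change of -0.20 and did not pass. The opposite strand gene Slc36a1os, which lies 6485 bases from Slc36a1, had a log2 fold change of 0.22.

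None of the 9 Slc38a genes passed, and 7 had positive log2 fold changes, beside 56.2% of all genes, with a family median of 0.17. These carriers move glutamine and other small neutral amino acids. Slc38a2, a plasma membrane carrier that is induced by amino acid shortage, was at 11.56, 11.63 and 11.64 in knockdown and at 11.43, 11.42, 11.48 and 11.37 in control libraries. Every knockdown value was higher, by a log2 fold change of 0.18 (SE 0.05; limma with Benjamini-Hochberg, adjusted p = 0.1). Slc38a9, the lysosomal arginine sensor of mTORC1, was also higher in each knockdown library, averaging 10.10 ± 0.04 (SD, n = 3) against 9.998 ± 0.02 (SD, n = 4) in controls, and its log2 fold change of 0.11 did not pass. Slc38a7, a lysosomal glutamine carrier, had a log2 fold change of 0.19 with overlapping groups.

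Slc38a11 had the largest difference of the family but a wide spread. It was at 6.72, 6.53 and 7.46 in knockdown and at 6.70, 6.45, 6.43 and 5.66 in control libraries. The outer values were again the CB6 libraries, and the log2 fold change of 0.59 had an interval from -0.07 to 1.25. Slc38a3, the basolateral glutamine carrier that rises in the proximal tubule in acidosis, had a log2 fold change of 0.09 (interval -0.53 to 0.71). Slc38a1 and Slc38a4, next to Slc38a2 on chromosome 15, were at 0.18 and 0.17, and Slc38a6 and Slc38a10 at -0.16 and -0.12. In the Slc43a family, Slc43a2, a carrier of branched-chain amino acids and phenylalanine, was at 11.92, 12.00 and 12.04 in knockdown and at 11.85, 12.33, 12.29 and 12.11 in control libraries. It overlapped between groups (log2 fold change -0.16), as did Slc43a3, a nucleobase carrier, at -0.06.

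**Figure D3:**
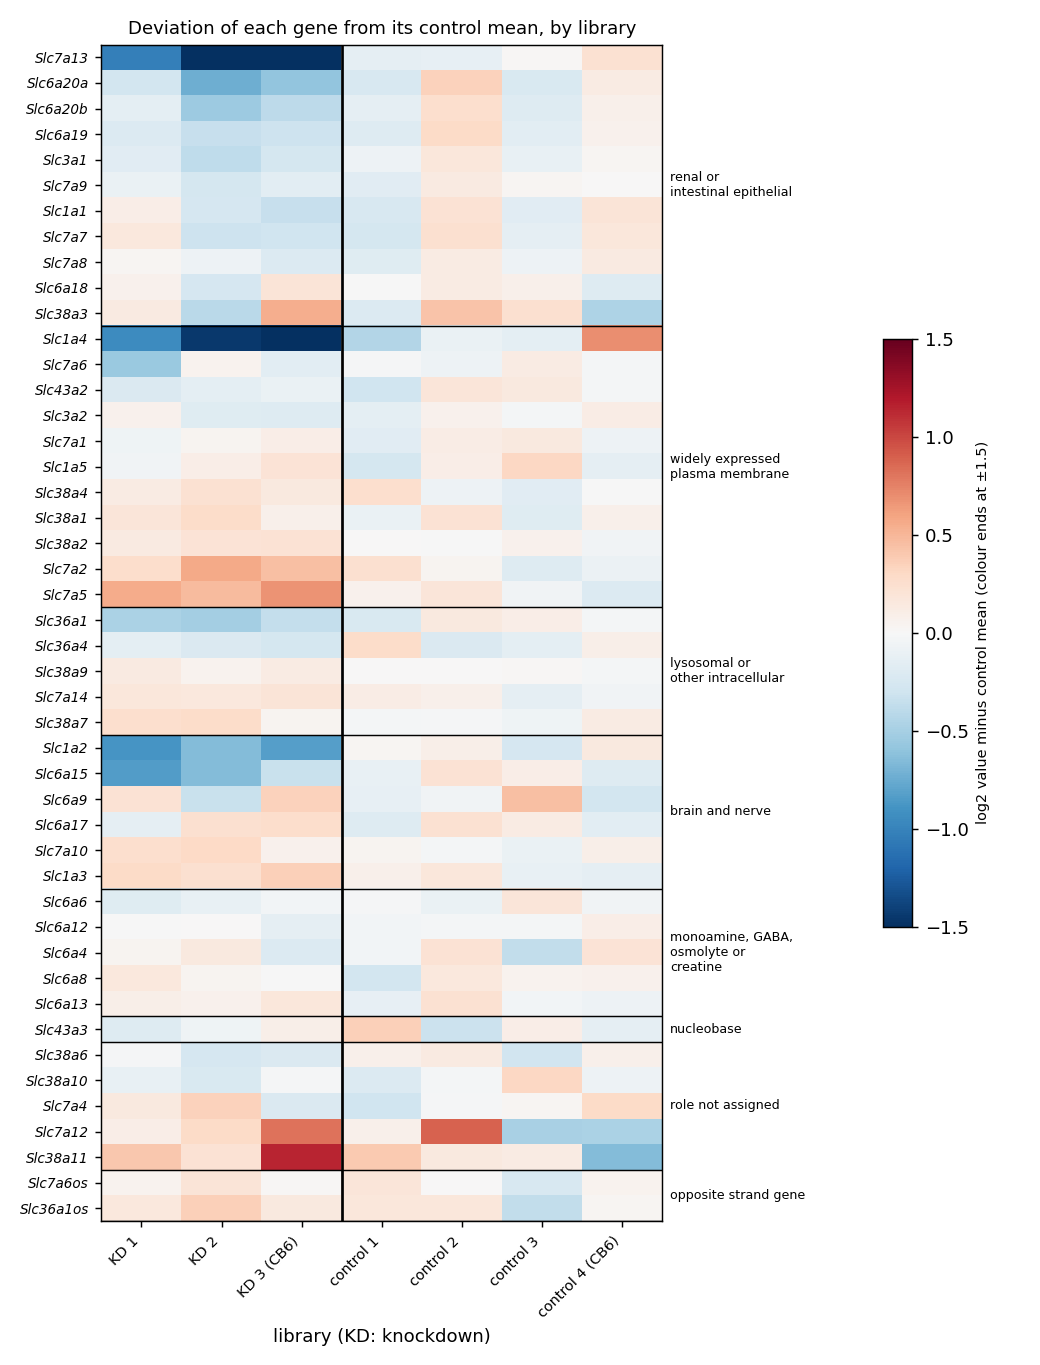
Log2 value of each gene minus its control mean (colour, blue lower and red higher, ending at ±1.5) in the 3 knockdown libraries (left of the line) and the 4 control libraries, with genes grouped by known role. In the epithelial block at the top, knockdown replicate 1 is the highest knockdown library for 9 of 11 genes and control replicate 2 the highest control library for 9 of 11.

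Grouped by role instead of family, the carriers of kidney and gut epithelium had mostly negative log2 fold changes. Of 11 such genes, 9 were negative, beside 43.8% of all genes, with a median of -0.17, and 1, Slc7a13, fell. Groups that did not overlap, with knockdown lower, were seen for 4 of them (Slc7a13, Slc6a20a, Slc6a19 and Slc3a1), beside 7.55% of all genes. Of 11 widely expressed plasma membrane carriers 7 were positive, beside 56.2% of all genes, with a median of 0.08. Among them 3 (Slc7a5, Slc7a2 and Slc38a2) lay above the controls without overlap, beside 10.8% of all genes, and 1 (Slc1a4) below, beside 7.55%. Slc1a4 fell, with the largest change of this role (-1.45). Of 6 brain and nerve carriers 4 were positive, beside 56.2% of all genes, with a median of 0.10. In that role 2 (Slc1a2, which fell, and Slc6a15) lay below the controls without overlap, beside 7.55% of all genes, and 1 (Slc1a3) above, beside 10.8%. The 5 lysosomal or other intracellular carriers had a median of 0.11, with Slc36a1 lower and Slc38a9 and Slc7a14 higher in each knockdown library. Genes of a role share their libraries and are not replicates of each other. The 11 epithelial genes were Slc1a1, Slc3a1, Slc6a18, Slc6a19, Slc6a20a, Slc6a20b, Slc7a7, Slc7a8, Slc7a9, Slc7a13 and Slc38a3. Roles were assigned with earlier results of these data known, and the counts depend on them. Slc3a2 (-0.10) and Slc43a2 (-0.16) were counted as widely expressed, and Slc7a12 (0.40) was given no role.

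Within each group the epithelial carriers followed a common order of libraries. Knockdown replicate 1 was the highest knockdown library for 9 of 11 genes and knockdown replicate 2 the lowest for 9. Among controls, replicate 2 was the highest for 9 and replicate 1 the lowest for 7. The mean over 35 proximal tubule markers was 12.09, 11.66 and 11.82 in the knockdown libraries, against 12.25, 12.53, 12.44 and 12.56 in the control libraries, without overlap. Of these markers 30 were negative, beside 43.8% of all genes, with a median of -0.44, and none was at 0. By limma with Benjamini-Hochberg (adjusted p under 0.05) 12 fell, beside 2.02% of all genes. Pck1 (1.49) and Slc5a1 (0.69) were the 2 that rose, beside 0.996% of all genes. With title style as a covariate 12 of the markers passed, beside 1.47% of all genes, and 4 in the libraries titled G alone, beside 0.309%. The part of proximal tubule content in the carriers' values was not tested, and in bulk RNA fewer cells of a type and less RNA per cell cannot be told apart. Of 22 podocyte markers 4 fell, beside 2.02% of all genes, and 19 were negative, beside 43.8%, with a median of -0.28. Of 16 markers of glomerular endothelium none passed (4 with an unadjusted p under 0.05 by limma, beside 18.4% of all genes). Among these 16, 13 were negative, with a median of -0.21. Of 13 mesangial markers 2 fell, Sfrp2 (-0.98) and Serpine2 (-0.39), and 9 were negative, with a median of -0.10. Of 7 immune markers none passed and 5 were positive, and of 2 red cell markers Alas2 fell (-0.54). Markers of the distal nephron and collecting duct went the other way, with 13 of 18 positive, beside 56.2% of all genes, and a median of 0.21. Among those 18, 2 rose, Slc4a1 (0.86) and Atp6v1g3 (0.56), beside 0.996% of all genes, and none fell.

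No partner protein of the carriers passed the test. Of 10 measured accessory proteins 8 were negative, with a median log2 fold change of -0.20. None passed (limma with Benjamini-Hochberg, smallest adjusted p = 0.0779, with 3 at an unadjusted p under 0.05). Over all genes 43.8% were negative, 56.2% positive and 18.4% at an unadjusted p under 0.05 by limma. Pdzk1, a scaffold of apical carriers, averaged 13.06 ± 0.22 in knockdown glomeruli, against 13.34 ± 0.19 in control glomeruli (SD, n = 3 and n = 4). Sgk1, a kinase that raises the surface level of several carriers, averaged 13.12 ± 0.01 in knockdown glomeruli, against 13.26 ± 0.06 in control glomeruli (SD, n = 3 and n = 4). Among 20 amino acid and peptide carriers of other families 13 were positive, with a median of 0.07, and none passed (limma with Benjamini-Hochberg, smallest adjusted p = 0.107; 3 with an unadjusted p under 0.05). The mitochondrial serine carrier Sfxn1 had a log2 fold change of 0.03 and the carnitine carrier Slc22a5 of 0.02.

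Of 59 measured enzymes that handle amino acids 40 were negative, beside 43.8% of all genes, with a median log2 fold change of -0.11. Of them 4 fell and none rose, beside 2.02% of all genes lower and 0.996% higher. The enzymes that fell were Ass1, which forms argininosuccinate for arginine synthesis (-0.87; limma with Benjamini-Hochberg, adjusted p = 0.00672), Odc1, the first enzyme of polyamine synthesis (-0.84), Haao, of tryptophan breakdown (-0.91), and Csad, of taurine synthesis (-0.36). With title style as a covariate 2 of the list passed, beside 1.47% of all genes, and 0 in the libraries titled G alone, beside 0.309%. Of 8 genes for glutathione synthesis and brush border peptidases, the peptidases Dpep1 (-1.32) and Anpep (-0.56) fell, and 1 passed with title style. Anpep and Dpep1 release amino acids from peptides at the apical surface of the proximal tubule. Of 35 markers of that tubule 12 fell, beside 2.02% of all genes, and 2 rose, beside 0.996%. Ass1 is among the 12 markers that fell, so it is counted in both lists. Gatm and Ggt1, which did not pass, are shared with the tubule markers as well. The part of tubule content in the values of Ass1, Anpep and Dpep1 was not tested.

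Genes of amino acid sensing and shortage did not pass. Over all genes 18.4% had an unadjusted p under 0.05 by limma, with 43.8% negative and 56.2% positive. None of 17 genes of the ATF4 response passed (limma with Benjamini-Hochberg; smallest adjusted p = 0.148; 4 with an unadjusted p under 0.05), with 10 negative and a median of -0.08. Vldlr and Nupr1 had log2 fold changes of 0.11 and -0.29. Over the 17 genes the log2 fold changes ran from -0.61 (Psat1) to 1.14 (Atf3), both with overlapping groups. None of 29 genes of amino acid sensing upstream of mTORC1 passed (limma with Benjamini-Hochberg; smallest adjusted p = 0.0821; 3 with an unadjusted p under 0.05), with 19 positive and a median of 0.05. Fnip2 and Mtor had log2 fold changes of -0.18 and 0.16.

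**Figure D4:**
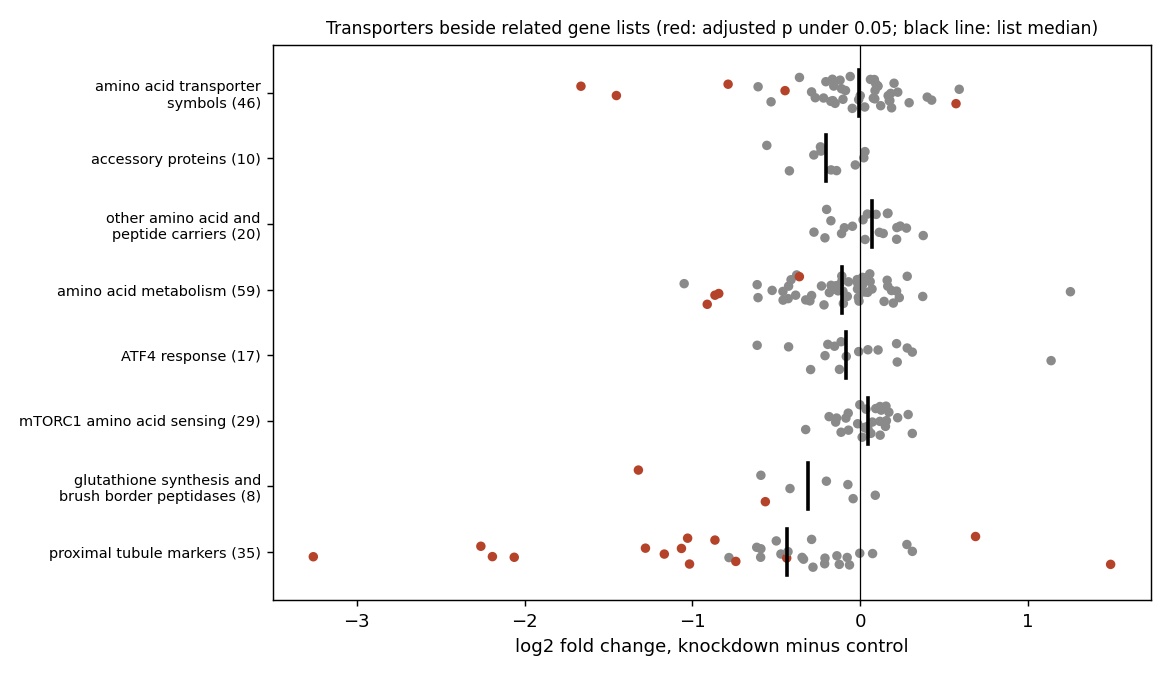
Log2 fold change, knockdown minus control (x axis), of each gene in the 46 transporter symbols, 6 related gene lists and the proximal tubule markers (rows, with the number measured), red where the adjusted p was under 0.05, with a black line at each median. The transporter median is -0.0039, and that of the proximal tubule markers -0.44.

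Not all of the 5 calls held with title style in the fit or without single animals. With title style as a covariate Slc7a13 (limma with Benjamini-Hochberg, adjusted p = 0.0218) and Slc1a2 (adjusted p = 0.0454) passed, 2 of the 46 symbols beside 1.47% of all genes. Both were lower, beside 1.13% of all genes lower and 0.34% higher in that fit. In the libraries titled G alone none of the 46 passed, beside 0.309% of all genes, in a fit with 2 knockdown and 3 control libraries. There Slc1a4 moved to -0.96 on the log2 scale, while Slc7a13 was at -1.58, Slc1a2 at -0.72, Slc36a1 at -0.50 and Slc7a5 at 0.45. Without knockdown replicate 3 none passed, and Slc7a13 came to an adjusted p of 0.0523 (limma, Benjamini-Hochberg) at a log2 fold change of -1.66. Slc7a13 passed without each of the other 6 libraries in turn, Slc1a2 without knockdown replicate 2 and control replicates 1, 2 and 3, Slc1a4 without knockdown replicate 1 and control replicate 1, Slc36a1 without control replicate 1, and Slc7a5 without control replicate 2. Slc7a5 also came to an adjusted p of 0.0516 with median scaling (limma, Benjamini-Hochberg).

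**Figure D5:**
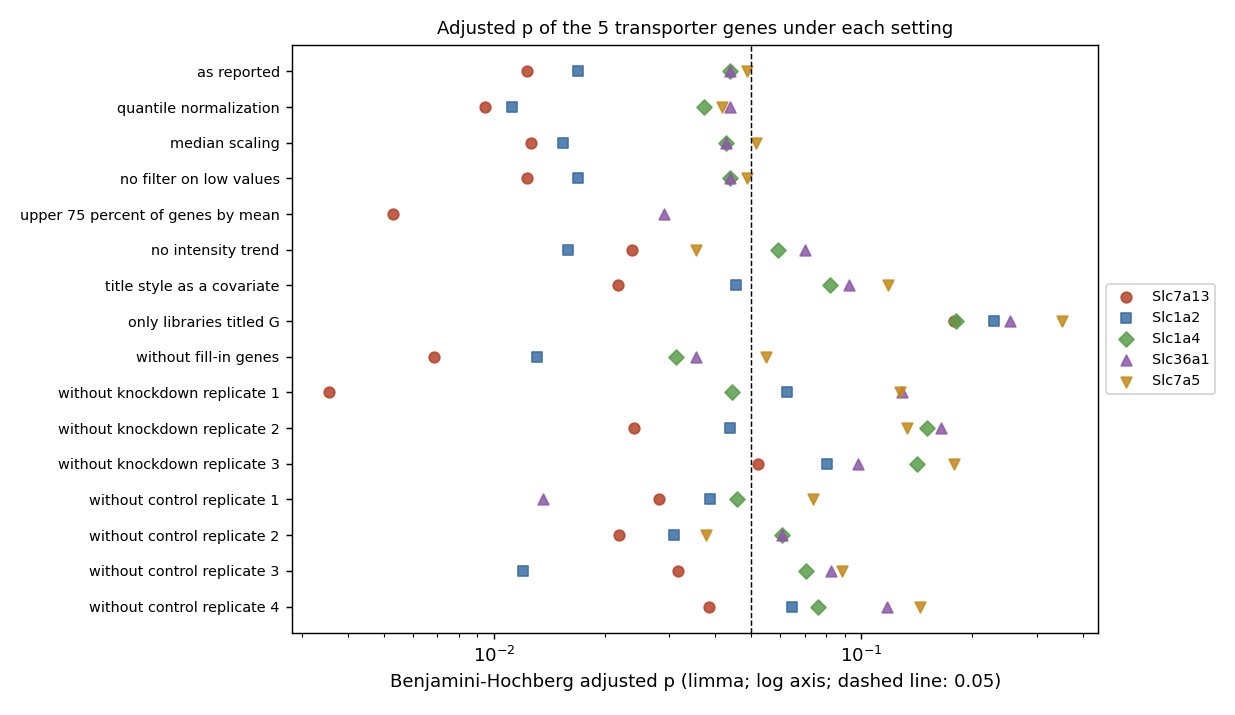
Benjamini-Hochberg adjusted p from limma (x axis, log scale, dashed line at 0.05) of the 5 genes past the threshold under each setting (rows), where genes below the upper 75% by mean have no point in that row. Slc7a13 stays left of the line in all settings shown but the libraries titled G alone (0.179) and the fit without knockdown replicate 3 (0.0523).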

How the data were processed

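Mice were perfused with beads, glomeruli were collected by magnet and sieve, and poly-A RNA was sequenced, per the labels' protocols. BWA and the build mm10 are named in the submitters' processing notes; the sources used here name no counter, strand setting or normalization. Each library had a deposited table of values on a log scale, read as log2 from its range (2.32 to 17.2); another base would rescale fold changes and leave tests unchanged. Coordinates are from GENCODE release M21 on GRCm38, the build of mm10, where all 46 symbols matched; 14 share exon bases with another gene.

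The groups were compared in limma 3.58.1 (R 4.3.3) with an intensity trend over all 12958 genes, adjusted by Benjamini-Hochberg, at a threshold of 0.05. The filter on low values (above the table minimum in 3 libraries) removed 0 genes. For each of the 5 genes past the threshold, the mean of the libraries titled G lay close to the mean of the CB6 pair. This held for Slc1a4 too, whose CB6 libraries were at 6.21 and 8.87. The pattern was not limited to these genes, as Shroom3, the podocyte marker Podxl and the proximal tubule marker Kap showed it as well. Values adjusted for title style before deposit would show this pattern, but such a step is not stated and was not tested. With that step, the p-values of the fit on group alone would be too small. Replicates are separate animals per the design text. Values of 108 genes differed between the libraries titled G only by shared offsets (within 0.003). Values were named by library for genes past the threshold, the highest mean and largest change of each family, and subunit partners. The members, lists and roles were chosen with earlier results of these data known.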

Additional observations from a re-analysis of the deposited data

Results flagged for a closer look

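In 3 of the 46 symbols, 1 of the 4 control libraries lay far from the other controls (Dixon's test at its 95% critical value); chance gives about 1 in 20 groups, and all 46 control groups were examined. Slc38a6 was at 8.60 in control replicate 3, against 8.97 to 9.03 in the other controls. Slc38a9 was at 9.96 in control replicate 4, against 10.01 in each of the others. Slc6a12 was at 4.02 in control replicate 4, against 3.88 to 3.89 in the others, which are libraries titled G and carry the filled-in pattern described for this gene.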

How the results depend on the processing

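The 4 lower calls became 2 with the upper 75% of genes by mean, with no intensity trend and with the title style covariate, and 0 both in G titles alone and at a threshold of 0.01. Leaving out each library in turn gave from 0 to 4. The 1 higher call (Slc7a5) became 0 with median scaling, the upper 75% of genes, title style, the libraries titled G alone, without the fill-in genes and at 0.01, and with a library left out it ran from 0 to 1. Slc7a5, Slc1a2 and Slc1a4 lie outside the upper 75% of genes and were not tested there. Over all genes 129 were higher and 262 lower, becoming 44 and 147 with title style, 14 and 26 in the libraries titled G, 348 and 498 at a threshold of 0.1, and 28 and 96 at 0.01. With a library left out, the counts ran from 31 to 163 higher and from 103 to 317 lower. No called gene changed sign under any of these settings, and 34 of the 46 symbols never did. In the libraries titled G alone the sign turned for Slc1a5 (-0.0214), Slc38a3 (-0.29), Slc6a12 (0.0307), Slc6a17 (-0.0049), Slc6a18 (-0.16), Slc6a4 (0.16), Slc6a9 (-0.15), Slc7a1 (-0.037) and Slc7a8 (0.0189), and otherwise for Slc6a12 with quantile normalization (0.0294) and Slc6a18 with median scaling (-0.0052). With a library left out, log2 fold changes crossed 0 for Slc1a5 (-0.0036 to 0.19), Slc38a3 (-0.14 to 0.34), Slc43a3 (-0.17 to 0.0584), Slc6a18 (-0.0948 to 0.13), Slc6a4 (-0.13 to 0.0923), Slc6a8 (-0.03 to 0.12), Slc6a9 (-0.0562 to 0.28), Slc7a1 (-0.0305 to 0.0746) and Slc7a4 (-0.0342 to 0.25). The cause of these moves was not tested. Depth is unknown, so counting error could not be separated from differences between animals. No paired analysis was possible because the labels give no replicate numbers shared by the groups.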

Other observations

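Some transporters differed between the title styles in how far the groups lay apart, which was not tested, since the CB6 style has 1 library a group. Slc38a11 differed by 1.80 within the CB6 pair and by 0.10 within the libraries titled G, knockdown minus control on the log2 scale. Slc7a12 differed by 1.29 within the CB6 pair and by 0.03 within the libraries titled G. Slc38a3 differed by 1.01 within the CB6 pair and by -0.29 within the libraries titled G.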
